A study of Mus musculus with 8 samples.

Results

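The genes examined carry glucose into cells, split it to pyruvate, exchange lactate, run the pentose phosphate pathway, make glycerol phosphate and handle glycogen. Their levels were compared between striata of wild-type mice and of mice labelled null for PGC-1α, a transcriptional coactivator encoded by Ppargc1a. The set held 36 gene symbols, and a probe was kept where its detection p was under 0.05 on 4 or more of the 8 arrays. The table held 46 probes for 33 of these genes, and 35 probes standing for 26 genes were kept. Of the 25697 probes on the table's list, 13413 passed this filter, standing for 10008 of 18138 symbols. The second probes of Pfkfb2 and Tkt, the closest to the limit among those kept, were detected on 6 arrays. The closest of those left out, for Pgk1, Pygm, Gys1 and another Tkt probe, were detected on 2. Hk2, Gpi1 and Ldhb were not analysed here.

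RNA was hybridised to Illumina mouse bead arrays, 4 from wild-type and 4 from null mice, all at postnatal day 30, on the C57BL/6 background and from striatum. The series title speaks of deletion in medium spiny neurons, the principal projection neurons of the striatum, and the labels name these cells, but RNA came from dissected striatal tissue. No promoter or Cre line behind the deletion is named in the sources used here. Whether the 4 samples of a group came from different animals is not stated, and the p-values then reflect only sample-to-sample spread, which may be technical.

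The 8 arrays sat on 1 chip with each group in its own block of positions, so position and group cannot be told apart. Arrays had mean raw intensities of 295 to 499 and 13009 to 13910 detected probes. Precision is limited by the small number of arrays, and the median standard error (SE) of a difference over all kept probes was 0.15 on the log2 scale. The Ppargc1a probe differed by 0.12 between null and wild-type (SE 0.23, limma adjusted p = 0.937). Where this probe lies relative to the deleted part is not given, so it does not check the labels, and "null" below is the labels' name. All 8 kept markers of medium spiny neurons, of 10 listed, were detected on every array, as were all 11 astrocyte, 9 of 10 listed oligodendrocyte and 7 of 9 listed endothelial markers. The tissue therefore held RNA of many cell types. By Xist and the Y-linked genes Eif2s3y and Jarid1d, Xist was high on wild-type arrays 1, 3 and 4 and null array 3, and the Y-linked genes on wild-type array 2 and null arrays 1, 2 and 4, so this sex-linked pattern was unequally spread over the groups. Neither the Uty probe nor the Ddx3y probe detected on all 8 arrays split the arrays this way. A dim Ddx3y probe, detected on 1 array, did (4.67 to 4.91 against 4.27 to 4.55), and another dim Ddx3y probe did not.

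Glycolysis turns glucose into pyruvate in the cytosol, yielding ATP and NADH, and lactate dehydrogenase regenerates NAD+ by reducing pyruvate to lactate. The pentose phosphate pathway branches off at glucose 6-phosphate and supplies NADPH and ribose, and the glycerol phosphate shuttle passes the electrons of cytosolic NADH to mitochondria. In the brain, blood glucose enters mainly through endothelial and astrocytic GLUT1 and neuronal GLUT3. Glycogen lies mostly in astrocytes, and lactate moves between cells through monocarboxylate carriers.

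No probe of the set passed the threshold in either direction. Values are log2 intensities after background correction and quantile normalisation, and a difference is null minus wild-type. By limma's moderated test (p adjusted over every kept probe by Benjamini-Hochberg), 0 of 35 member probes were called, and the smallest adjusted p among them was 0.698. Over all 13413 kept probes 0 were called as well, a share of 0%, with a smallest adjusted p of 0.592. At an unadjusted p under 0.05, 4 member probes lay lower in null (Slc2a1, Eno2, G6pdx and Gpd1) and 0 lay higher, where 3.7% of all kept probes lay lower and 3.21% higher. The 4 are 11.4% of the member probes. For Slc2a1, G6pdx and Gpd1 all 4 null arrays lay below all 4 wild-type arrays. Such a separation occurred for 2.59% of all kept probes in the lower direction and 1.54% in the higher, and for 0 member probes in the higher.

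The typical shift was small. Taking each gene by its kept probe with the highest mean, 17 of 26 genes had a negative and 9 a positive difference, with a median of -0.08 beside -0.0043 over all kept probes. The median absolute difference was 0.148 in these genes and 0.120 over all kept probes. The residual standard deviation between arrays of a group had a median of 0.21 both in the set and over all kept probes. It ranged in the set from 0.13 to 0.41, the highest for Gpd1. By branch, the median difference was -0.26 for the glucose carriers, -0.22 for glycerol phosphate, -0.17 for lower glycolysis, -0.07 for upper glycolysis and -0.05 for the pentose phosphate pathway. It was 0.08 for both the lactate and the glycogen genes. These medians are descriptions and carry no test, and several depended on 1 array or on a term for sex. Upper glycolysis was 0.02 without null array 1, 0.03 without null array 3, -0.01 without wild-type array 2 and -0.20 with the sex-linked pattern as a term, added after the data were seen. Lower glycolysis was -0.28 without wild-type array 4, -0.10 without wild-type array 2, -0.11 without null array 3 and -0.30 with the sex term. The pentose phosphate median was -0.01 without wild-type array 1 and -0.13 without wild-type array 3. The glycogen median was -0.01 with the sex term, and the lactate median -0.01 among probes detected on all 8 arrays, where Ldha alone remained. The glycerol phosphate median was -0.11 without null array 4 and -0.04 with no background correction. For the glucose carriers it stayed between -0.31 and -0.23 under every alternative run.

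**Figure D1:**
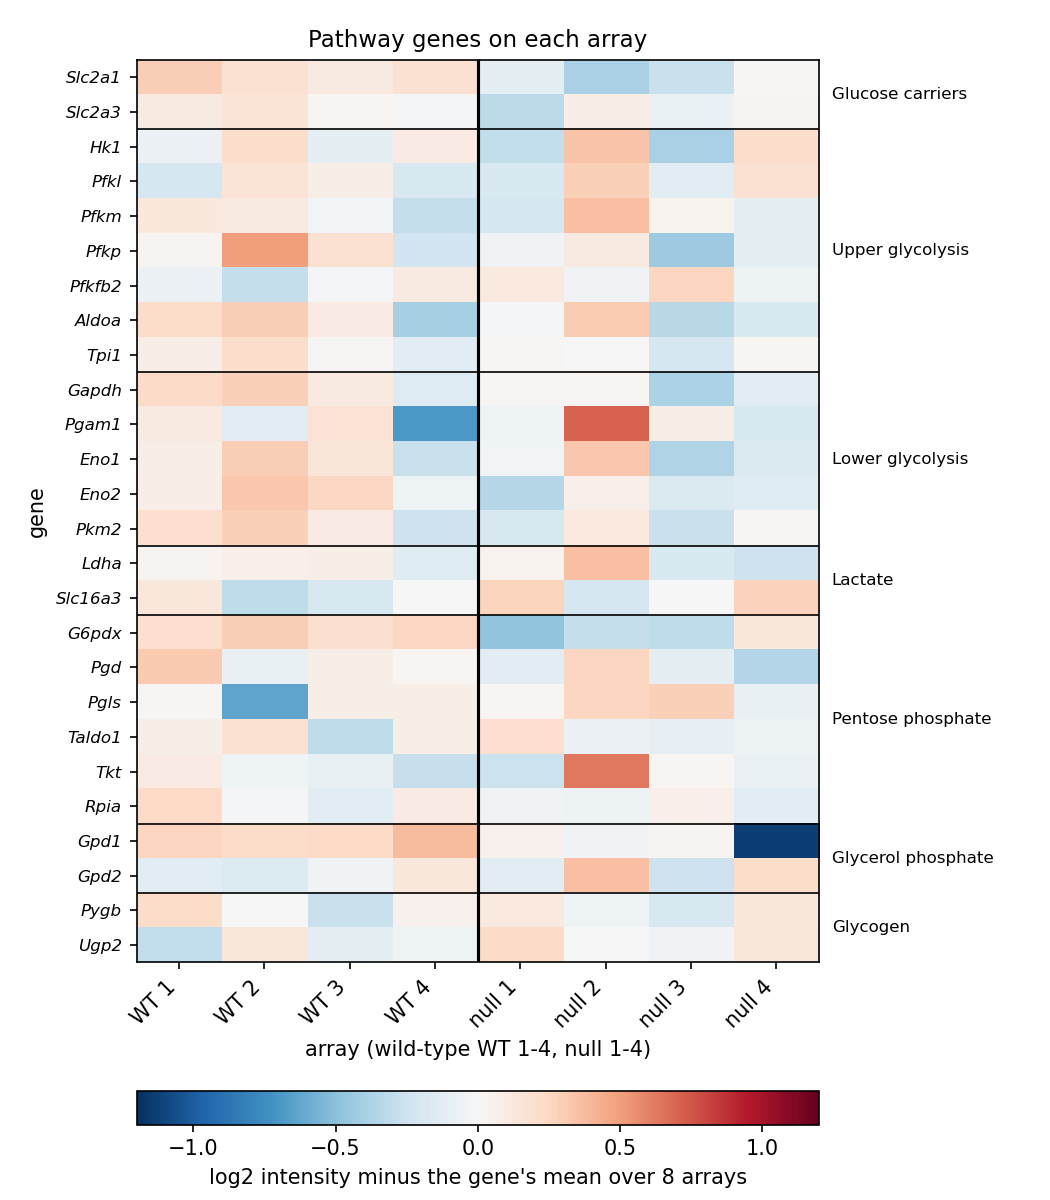
Log2 intensity of each of the 26 kept genes (rows, grouped by branch) on each of the 8 arrays (columns), shown as the difference from the gene's mean over all arrays. The Slc2a1 and G6pdx rows are above their means on all wild-type arrays and, by less, on null array 4, and the Gpd1 row is lowest on null array 4, at 4.60 against 5.69 to 6.11 on the other arrays.

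**Figure D2:**
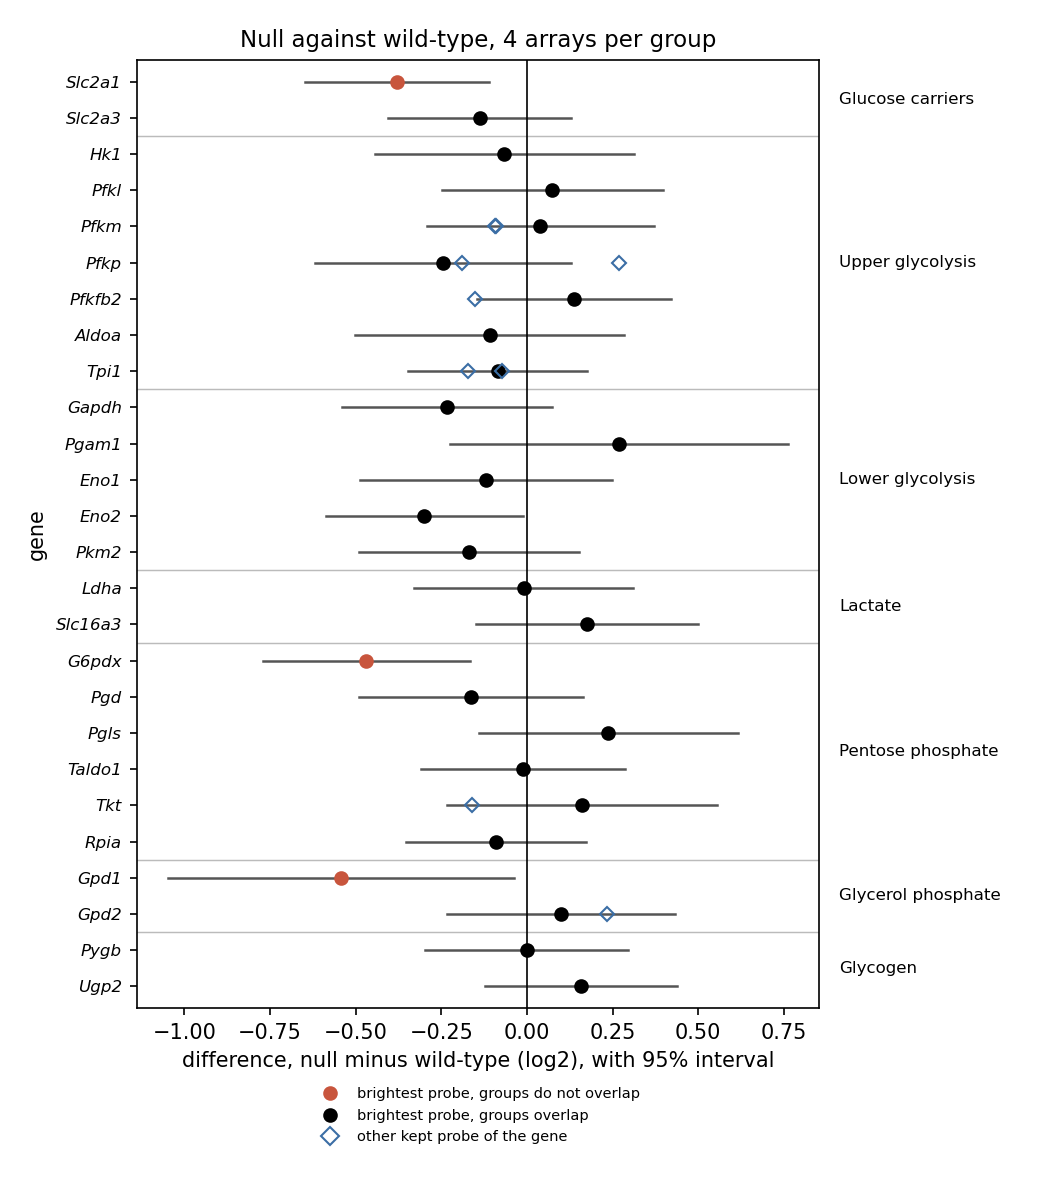
Difference null minus wild-type (log2, x axis) with its 95% confidence interval for each kept gene, ordered by branch. The intervals of Slc2a1, Eno2, G6pdx and Gpd1 lie below 0, and those of the other genes span 0.

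Glucose carriers came first in size. Slc2a1 encodes GLUT1, the carrier of the blood-brain barrier and of astrocytes. Its log2 intensities were 9.99, 9.88, 9.80 and 9.87 on the wild-type arrays and 9.58, 9.30, 9.43 and 9.71 on the null arrays. The groups did not overlap, null array 4 lying nearest to wild-type. The means were 9.89 ± 0.08 (SD, n = 4) and 9.50 ± 0.18 (SD, n = 4), a difference of -0.38 (SE 0.12, 95% interval -0.65 to -0.11) and a ratio of 0.768. The limma p was 0.00948 unadjusted and 0.698 adjusted. As raw intensity the probe read 1385, 875, 1133 and 729 in wild-type and 918, 969, 688 and 664 in null arrays, so before normalisation the groups overlapped. In bulk tissue, fewer cells of a type and less RNA per cell cannot be told apart.

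Slc2a3 encodes GLUT3, the main carrier of neurons. Its values were 10.66, 10.71, 10.58 and 10.53 in wild-type and 10.24, 10.63, 10.47 and 10.58 in null arrays. Null array 1 was the lowest and the groups overlapped, with a difference of -0.14 (SE 0.12). The mean of both carriers, each centred on its mean over the 8 arrays, lay between 0.07 and 0.20 on wild-type arrays and between -0.21 and 0.02 on null arrays.

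Vascular markers had the same sign as Slc2a1. All 7 kept endothelial markers of 9 listed had negative differences (median -0.19, score from -0.02 to 0.19 in wild-type and -0.24 to 0.03 in null arrays). All 4 kept mural markers of 5 listed had negative differences too (median -0.20, score from 0.09 to 0.17 and -0.29 to 0.08). Astrocyte markers had positive differences in 9 of 11 (median 0.14). Null array 2 had the lowest Slc2a1 value, an endothelial score of 0.01, a mural score of -0.17 and the highest astrocyte score, 0.22. Null array 4 had the highest Slc2a1 value of the null arrays and their highest endothelial and mural scores, 0.03 and 0.08. Its astrocyte score was 0.04. The part of these cell types in the Slc2a1 difference was not tested.

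Promoter sequence is shown for the genes nearest to a difference that have a window in the RefSeq table (GRCm38.p6). Ldha, whose values did not separate the groups, was added because its window held the most matches to ACGTG, marked below, among the set's windows. Of the 26 kept genes 24 had windows, 39 in all, and Slc2a3 and Gpd1 had none. Each sequence is the 250 bases before the gene's start, 5′ to 3′ on the gene's strand. Capitals mark ACGTG on either strand, a form of the core of the element bound by hypoxia-inducible factors. Other forms of that core were not searched, marked or counted. Where ACGTG lies on both strands at once the letters are the palindrome CACGTG, and each strand is then counted as a match. The windows are chr4:119108495-119108744 (+ strand) for Slc2a1, chr6:124769674-124769923 (- strand) for Eno2, chr7:46845554-46845803 (+ strand) for Ldha and chrX:74428881-74429130 (- strand) for G6pdx.
Slc2a1: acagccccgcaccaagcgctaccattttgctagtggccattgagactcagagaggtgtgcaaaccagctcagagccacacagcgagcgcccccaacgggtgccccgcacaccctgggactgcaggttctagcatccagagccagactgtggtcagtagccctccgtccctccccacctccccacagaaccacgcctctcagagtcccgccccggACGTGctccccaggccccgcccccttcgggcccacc
Eno2: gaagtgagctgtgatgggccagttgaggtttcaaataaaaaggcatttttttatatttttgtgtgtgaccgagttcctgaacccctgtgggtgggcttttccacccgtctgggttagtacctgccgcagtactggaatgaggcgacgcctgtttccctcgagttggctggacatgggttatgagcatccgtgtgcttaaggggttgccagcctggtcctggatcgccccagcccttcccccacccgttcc
Ldha: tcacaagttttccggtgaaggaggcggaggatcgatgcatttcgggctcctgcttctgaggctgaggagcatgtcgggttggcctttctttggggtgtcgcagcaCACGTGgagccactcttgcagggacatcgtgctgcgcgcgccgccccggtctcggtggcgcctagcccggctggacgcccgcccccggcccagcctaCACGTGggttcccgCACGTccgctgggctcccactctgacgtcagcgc
G6pdx: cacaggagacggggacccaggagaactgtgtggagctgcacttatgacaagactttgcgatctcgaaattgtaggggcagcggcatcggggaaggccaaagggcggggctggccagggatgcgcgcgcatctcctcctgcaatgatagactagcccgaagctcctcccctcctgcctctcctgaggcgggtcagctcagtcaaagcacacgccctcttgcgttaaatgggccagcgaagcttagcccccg
The Slc2a1 window held ACGTG once, at bases -36 to -32 from the start. This Ldha window, the one of a pair with ACGTG, was chosen for its count, 5 over both strands. The Eno2 and G6pdx windows held no ACGTG. Over the set, 14 of 39 windows held ACGTG (35.9%, from 11 genes), beside 16.6% of all 32851 windows. The median GC content was 60.4% in the set's windows and 52.4% in all. For nuclear respiratory factor 1 only the spelling GCGCATGC of its core was searched, on either strand. This spelling was in 1 of 39 windows (2.56%, that of Pgam1) and in 2.26% of all, and other spellings were not counted. The element of the oestrogen-related receptors, partners of PGC-1α, was searched as TNAAGGTCA on either strand and was in 0 of 39 windows and 1.14% of all. A match is a description of the letters and not a bound site.

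Upper glycolysis traps glucose as a phosphate and cuts the hexose into trioses. Of its 10 listed genes 7 were kept, 4 with a negative and 3 with a positive difference, and 0 were called. Hk1, the main brain hexokinase, differed by -0.07 (SE 0.17). Phosphofructokinase, the committed step, has 3 subunit genes. Pfkl differed by 0.07 (SE 0.15), Pfkm by 0.04 (SE 0.15) and Pfkp by -0.24 (SE 0.17, limma adjusted p = 0.789).

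Pfkp, the platelet type subunit, read 9.51, 9.98, 9.66 and 9.25 in wild-type and 9.44, 9.59, 9.04 and 9.36 in null arrays. The groups overlapped between 9.25 and 9.59. The Pfkp difference was -0.12 without wild-type array 2, -0.14 without null array 3 and -0.48 with the sex term. Pfkfb2 makes and breaks down fructose 2,6-bisphosphate, the activator of phosphofructokinase. It read 8.93, 8.71, 8.98 and 9.11 in wild-type and 9.12, 8.96, 9.25 and 8.93 in null arrays. These groups overlapped as well, and their means differed by 0.14 (SE 0.13). Aldolase A, encoded by Aldoa, differed by -0.11 (SE 0.18) and triosephosphate isomerase, encoded by Tpi1, by -0.09 (SE 0.12). Pfkfb3 was detected on null array 4 alone and a second Pfkl probe on null array 2 alone, and neither was kept.

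Genes with more than 1 kept probe did not all point one way. In 4 of 6 such genes the kept probes lay on both sides of 0. The other Pfkp probes differed by -0.19 and 0.27, the other Pfkm probes by -0.09 each, and the second Pfkfb2 probe by -0.15. For Tkt, the probes gave 0.16 and -0.16. The 3 Tpi1 probes were all negative (-0.09, -0.07 and -0.17) and both Gpd2 probes positive (0.10 and 0.23). With all kept probes of a gene averaged before the fit, the Pfkp difference was -0.06 in place of -0.24.

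Lower glycolysis turns the trioses into pyruvate and yields ATP. Of its 6 genes 5 were kept, 4 with a negative difference. Eno2 encodes the neuronal enolase, a common marker of mature neurons. Its values were 12.93, 13.18, 13.10 and 12.80 in wild-type and 12.52, 12.91, 12.68 and 12.71 in null arrays. Only null array 2 exceeded a wild-type array, the fourth. The difference was -0.30 (SE 0.13, 95% interval -0.59 to -0.01), a ratio of 0.813, and the limma p was 0.0429 unadjusted and 0.707 adjusted. All 8 kept markers of medium spiny neurons, of 10 listed, also had negative differences (median -0.25, score from -0.01 to 0.31 in wild-type and -0.52 to 0.17 in null arrays). All 5 kept markers of cortical excitatory neurons, of 8 listed, had positive ones (median 1.06, score from -1.61 to 0.19 and -0.20 to 1.30). Their part in the Eno2 difference was not tested.

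Gapdh, which makes the pathway's NADH, read 12.80, 12.86, 12.68 and 12.41 in wild-type and 12.58, 12.59, 12.19 and 12.45 in null arrays. Wild-type array 4 lay among the null arrays, and the difference was -0.23 (SE 0.14, limma adjusted p = 0.762). Eno1, the ubiquitous enolase, differed by -0.12 (SE 0.17) and Pkm2, the pyruvate kinase of brain and muscle, by -0.17 (SE 0.15). Pgam1, phosphoglycerate mutase, had the highest positive difference of the set, 0.27 (SE 0.23), with 8.81 on null array 2 and 7.40 on wild-type array 4 as its extremes. Without the former array it was 0.08, and without the latter also 0.08. The Pgk1 probe was detected on wild-type array 3 and null array 2 only, and was not kept.

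Arrays differed within groups in a way that crossed many genes of the pathway. The lower glycolysis score, the mean of the 5 genes after centring each on its mean, was 0.14, 0.21, 0.16 and -0.28 in wild-type and -0.12, 0.24, -0.22 and -0.12 in null arrays. Wild-type array 4 was thus the lowest and null array 2 the highest of all 8. Null array 2 gave the highest value of 9 of the 26 genes (34.6%, beside 18.4% of all kept probes) and null array 3 the lowest of 7 (26.9%, beside 12.7%). Wild-type array 2 was highest in 7 (26.9%, beside 13.1%). Null array 2 also had the highest cortical score, 1.30, and the lowest medium spiny neuron score, and the part of tissue makeup in this pattern was not tested.

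**Figure D3:**
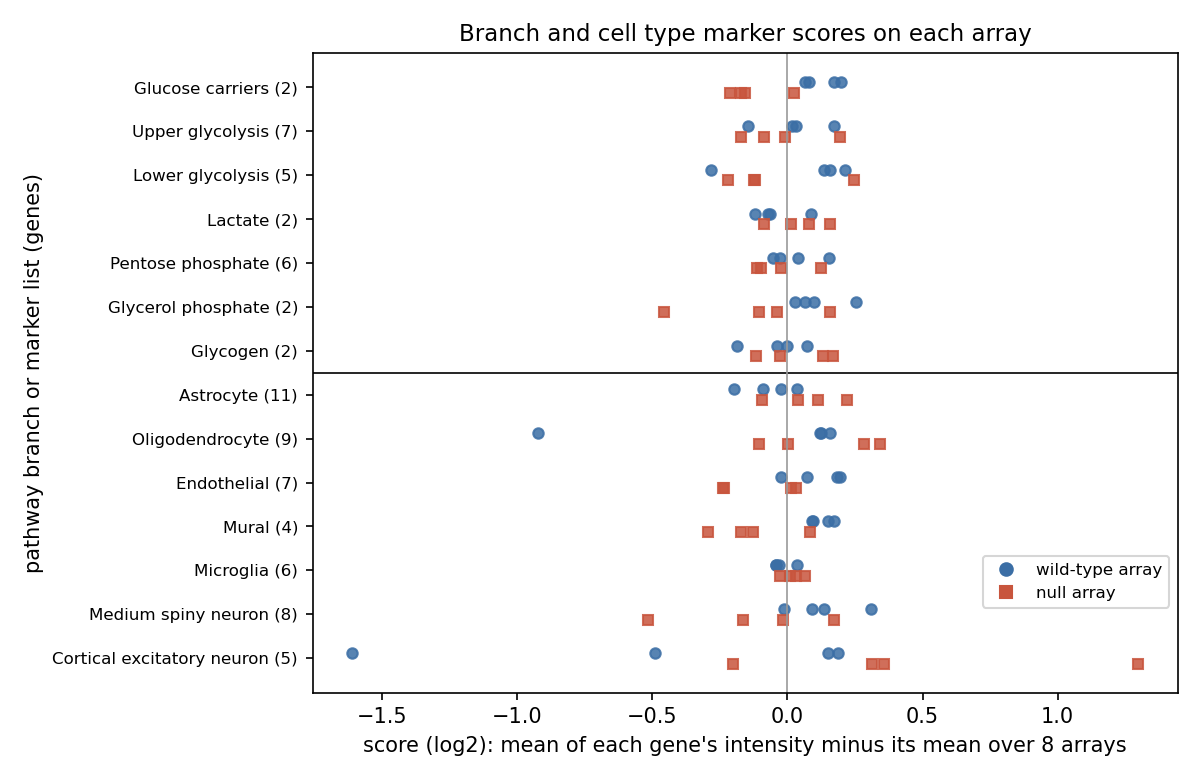
Score of each pathway branch and each cell type marker list (rows, with the number of kept genes) on each array (points), as the list's average log2 intensity after each gene is centred on its own mean. The glucose carrier and mural scores of the null arrays lie below those of the wild-type arrays, and the cortical excitatory score runs from -1.61 on wild-type array 1 to 1.30 on null array 2.

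Lactate genes were thinly measured. Ldha encodes the A subunit of lactate dehydrogenase. It read 11.01, 11.04, 11.04 and 10.83 in wild-type and 11.02, 11.34, 10.79 and 10.73 in null arrays. The groups overlapped, and the difference of -0.01 had a 95% interval of -0.33 to 0.31 (SE 0.15, limma adjusted p = 0.992). Slc16a3 encodes MCT4, a lactate exporter of astrocytes and muscle, and its kept probe was detected on 7 arrays. It read 5.23, 4.79, 4.90 and 5.10 in wild-type and 5.36, 4.89, 5.10 and 5.37 in null arrays, near the dim end of the table, with a difference of 0.18 (SE 0.15). The groups overlapped here too. Slc16a1 (MCT1, the endothelial and glial carrier) and Slc16a7 (MCT2, the neuronal one) were detected on 0 arrays, as were 2 further Slc16a3 probes, so each had only an upper bound.

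Pentose phosphate genes were all 6 kept. G6pdx, the X-linked glucose 6-phosphate dehydrogenase, catalyses the first and rate-limiting step of the NADPH-yielding arm. It read 6.98, 7.07, 6.97 and 7.03 in wild-type and 6.30, 6.49, 6.48 and 6.91 in null arrays. The wild-type arrays were tightly grouped and every null array lay below them, null array 4 by the least. Means were 7.02 ± 0.05 (SD, n = 4) and 6.55 ± 0.26 (SD, n = 4), a difference of -0.47 (SE 0.14, 95% interval -0.77 to -0.17) and a ratio of 0.723. The limma p was 0.00554 unadjusted, rank 98 of all kept probes, and 0.698 adjusted. Raw intensities were 255, 189, 241 and 173 in wild-type and 180, 225, 162 and 164 in null arrays, which overlapped.

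G6pdx values were set beside the sex-linked patterns. Among arrays with the Xist pattern, G6pdx read 6.98, 6.97 and 7.03 in wild-type and 6.48 in null. Among arrays with the Y-linked pattern it read 7.07 in wild-type and 6.30, 6.49 and 6.91 in null. The null values were the lower within both patterns, though each had only 1 array of one group. With the pattern as a term in the fit, added after the data were seen, the difference was -0.51. It was -0.23 with no background correction.

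The other pentose phosphate genes did not separate the groups. Pgls, the lactonase of the second step, read 8.73, 8.09, 8.80 and 8.80 in wild-type and 8.75, 8.98, 9.01 and 8.63 in null arrays. Its difference of 0.24 (SE 0.17) was 0.07 without wild-type array 2, the low one, and 0.46 with the sex term. Pgd, the second NADPH-producing dehydrogenase, differed by -0.16 (SE 0.15). In the non-oxidative arm, which returns pentoses to glycolysis, the transketolase Tkt differed by 0.16 (SE 0.18), the transaldolase Taldo1 by -0.01 (SE 0.14) and the ribose 5-phosphate isomerase Rpia by -0.09 (SE 0.12). Both oxidative dehydrogenases thus had negative differences and the lactonase between them a positive one.

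Glycerol phosphate genes form a shuttle. Gpd1, the cytosolic glycerol 3-phosphate dehydrogenase, had the largest absolute difference of the 26 genes. Its values were 5.99, 5.95, 5.97 and 6.11 in wild-type and 5.78, 5.69, 5.77 and 4.60 in null arrays. The groups did not overlap, and null array 4, where the probe was not detected, stood far below the rest. The difference was -0.54 (SE 0.23, 95% interval -1.05 to -0.04), a ratio of 0.686, and the limma p was 0.0374 unadjusted and 0.707 adjusted. Without null array 4 it was -0.26, and with no background correction -0.17. Raw intensities were 173, 126, 168 and 131 in wild-type and 155, 170, 132 and 97.8 in null arrays. Gpd1 is a gene of oligodendrocytes in brain. All 9 kept oligodendrocyte markers, of 10 listed, had positive differences (median 0.25), but their scores overlapped between the groups. Wild-type array 3 scored lowest, at -0.92, while wild-type arrays 1, 2 and 4 scored 0.12, 0.12 and 0.16. Null arrays 2 and 3, at -0.11 and 0.002, lay below those, and null arrays 1 and 4, at 0.34 and 0.28, above. The part of oligodendrocytes in the Gpd1 difference was not tested.

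Gpd2, the mitochondrial partner of the shuttle, read 9.42, 9.38, 9.50 and 9.68 in wild-type and 9.41, 9.90, 9.30 and 9.76 in null arrays. The groups overlapped, with a difference of 0.10 (SE 0.15).

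Glycogen genes showed no separation. Pygb, the brain glycogen phosphorylase, read 9.72, 9.51, 9.23 and 9.55 in wild-type and 9.62, 9.45, 9.31 and 9.63 in null arrays. The means were equal to 2 decimals, and the 95% interval of the difference ran from -0.30 to 0.30. Ugp2, which makes the UDP-glucose that glycogen is built from, read 7.74, 8.18, 7.94 and 7.99 in wild-type and 8.27, 8.03, 8.0 and 8.18 in null arrays. Its difference was 0.16 (SE 0.13), and the groups overlapped. The probe of Gys1, the glycogen synthase of brain and muscle, was detected on wild-type array 3 and null array 2, and that of the muscle phosphorylase Pygm on wild-type array 2 and null array 4. Gbe1, the branching enzyme, was detected on 0 arrays, and none of the 3 was kept.

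**Figure D4:**
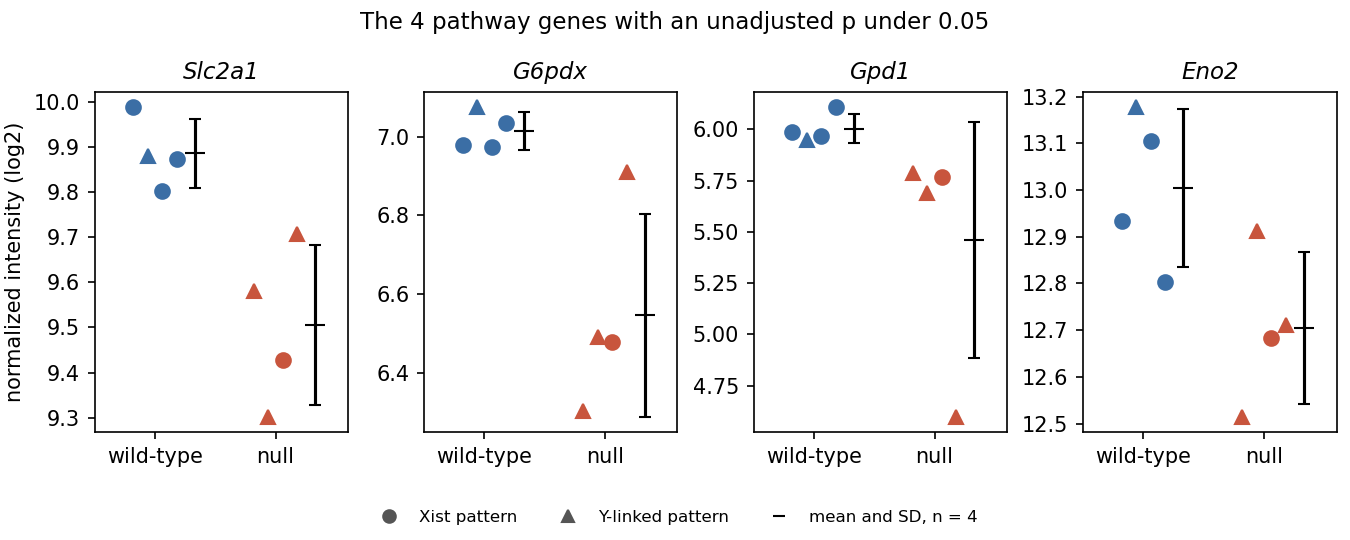
Log2 intensity (y axis) of Slc2a1, G6pdx, Gpd1 and Eno2 on each array, as circles (Xist pattern) or triangles (Y-linked pattern), with the group mean and SD (n = 4) as bars. Null arrays lie below all wild-type arrays for Slc2a1, G6pdx and Gpd1, while for Eno2 the value 12.91 on null array 2 exceeds 12.80 on wild-type array 4.

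Isozyme pairs were compared by each array's own difference between both genes, which asks only whether the pair shifted unequally, since levels of different probes are not comparable. Of 7 pairs listed, 3 had both genes kept, and the smallest p that 4 against 4 arrays allow is 0.0286. Eno1 minus Eno2 was -1.52 ± 0.10 in wild-type and -1.34 ± 0.24 in null arrays (SD, n = 4 each), differing by 0.18 (two-sided exact permutation p = 0.257, adjusted p = 0.257 over the 3 pairs). Slc2a1 minus Slc2a3 was -0.73 ± 0.08 and -0.98 ± 0.28 (SD, n = 4 each), differing by -0.24 (exact permutation p = 0.143, adjusted p = 0.214). Gpd1 minus Gpd2 was -3.49 ± 0.07 and -4.13 ± 0.75 (SD, n = 4 each), differing by -0.64 (exact permutation p = 0.0857, adjusted p = 0.214). None passed, and the null arrays spread more widely than the wild-type arrays in each pair. For Gpd1 minus Gpd2, null array 4 read -5.16, and Gpd1 was not detected on it. Without that array this pair differed by -0.30.

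Neighbouring genes of the same pathways, outside the set, gave the same count of calls. Of 95 listed genes 62 were kept, 37 with a negative and 25 with a positive difference (median -0.04), and 0 of their 78 probes passed the adjusted threshold. At an unadjusted p under 0.05 the genes' leading probes gave 1 lower and 1 higher. That is 1.61% each, beside 3.7% of all kept probes lower and 3.21% higher. The lower was Gaa, the lysosomal enzyme that degrades glycogen, with 10.66, 10.79, 10.52 and 10.20 in wild-type and 9.89, 9.93, 10.25 and 10.11 in null arrays. Null array 3 exceeded wild-type array 4, and the difference was -0.50 (SE 0.15), for which the limma p was 0.00601 unadjusted and 0.698 adjusted. The higher was Hkdc1, a hexokinase-like gene, with 4.66, 4.82, 4.88 and 4.90 in wild-type and 5.55, 6.29, 5.05 and 5.07 in null arrays. Its groups did not overlap, but the probe was detected on 1 wild-type array and all 4 null arrays, so the wild-type side is largely below detection.

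By group, 11 of 22 further glycolysis genes were kept (5 lower, 6 higher), and Aldoc, the astrocytic aldolase, differed by 0.14 (SE 0.12). Of genes that govern the entry of pyruvate into mitochondria, 12 of 14 were kept (8 lower, 4 higher). Pdp1, the phosphatase that activates pyruvate dehydrogenase and is listed on the array as Ppm2c, differed by -0.23 (SE 0.16), and Pdk1, a kinase that inhibits it, by 0.18 (SE 0.16). Further lactate genes numbered 3 kept of 7 (2 lower, 1 higher), with Ldhd, the D-lactate dehydrogenase, at -0.10 (SE 0.17) and Emb, a chaperone of monocarboxylate carriers, at -0.06 (SE 0.16). No direction held across these groups.

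Further pentose phosphate genes numbered 4 kept of 6 (2 lower, 2 higher), with the epimerase Rpe at 0.12 (SE 0.14) and H6pd, the counterpart of G6pdx in the endoplasmic reticulum, at -0.11 (SE 0.15). Of further glycogen genes 16 of 22 were kept (8 lower, 8 higher), and Nhlrc1, which encodes the ubiquitin ligase malin, differed by -0.28 (SE 0.13). Other genes listed with the glucose carriers, not all of which need carry glucose, gave 4 kept of 7 (2 lower, 2 higher). They ran from -0.17 (SE 0.14) for Slc2a13 to 0.35 (SE 0.18) for Slc2a6, both also named after their values were seen. Of regulators, 7 of 10 were kept (5 lower, 2 higher, from -0.15 to 0.15). Of the NADH shuttle genes 5 of 7 were kept and all 5 had negative differences (median -0.11). Among them Got2, the mitochondrial aspartate aminotransferase of the malate-aspartate shuttle, read 12.57, 12.62, 12.42 and 12.31 in wild-type and 12.24, 12.29, 12.19 and 12.23 in null arrays. Its groups did not overlap (difference -0.24, SE 0.11), and it was named after its values were seen. The limma p of Got2 was 0.0589 unadjusted and 0.730 adjusted. Of the 62 kept neighbour genes 1 separated in each direction (1.61% each), beside 2.59% of all kept probes lower and 1.54% higher.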

How the data were processed

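RNA from 8 striatal samples (4 wild-type, 4 null, by the labels) was measured on Illumina mouse bead arrays. The deposited table holds raw probe intensity values and, per the file headers, a detection p-value per probe and array. GenomeStudio is named without a version, per the submitters' processing notes. The authors' processed intensity values, whose steps are not given in the sources used here, have the rank order of the raw values of the same array, medians of 14.9 to 15.0 and 23.1% of values below 0. They served as an alternative.

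Raw intensities were background-corrected from the detection p-values and quantile-normalised with neqc (limma 3.58.1 in R 4.3.3, offset 16), giving log2 intensity. Null was compared with wild-type by lmFit and eBayes over 13413 probes detected (p under 0.05) on 4 or more arrays, two-sided, with no block, and Benjamini-Hochberg adjustment at 0.05. The fit was tested on simulated data. Isozyme pairs had exact permutation tests. No column was left unused (0). Array values are given for members whose groups do not overlap and for 2 members per branch with the smallest p. Neighbours are named by the 2 smallest p in pyruvate entry, lactate, pentose phosphate, glycogen and other glycolysis. Members and lists were chosen with earlier results of these data known. Alternatives were the authors' values, cyclic loess, no background correction, centring on the median, other detection filters, a replicate block, averaged probes, leaving out each array and, added after seeing the data, sex pattern as a term.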

Additional observations from a re-analysis of the deposited data

Results flagged for a closer look

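Within groups of 4 arrays, 5 of 52 gene and group combinations had 1 array far from the other 3 by Dixon's criterion, which chance meets in about 1 in 20 groups. Null array 4 read 4.599 for Gpd1, with 5.69 as the nearest of the other null arrays. Wild-type array 2 read 8.089 for Pgls, with 8.734 as the nearest. Wild-type array 4 read 10.83 for Ldha, with 11.01 as the nearest. Null array 3 read 12.37 for Tpi1, with 12.56 as the nearest. Null array 1 read 11.39 for Taldo1, above 11.12 as the nearest. The 5 values fell on 5 different arrays.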

How the results depend on the processing

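No alternative brought a member probe past the threshold, the smallest adjusted p among members being 0.446. Over all kept probes the count of calls without 1 array ran from 0 to 1: without null array 4 it was 1, the Ttr probe (-4.15, SE 0.48, limma adjusted p = 0.0486). With all 8 arrays the Ttr probe differed by -2.43 and was not called (limma adjusted p = 0.748). With the replicate block the count was 0, with a smallest adjusted p of 0.518. Same-numbered arrays correlated at 0.087, -0.004, 0.234 and 0.045 in their deviations, so the numbers were not taken as pairs, and arrays 1, 3 and 4 but not 2 correlated best with their own number. In 17 of 26 genes the direction held under every alternative. With cyclic loess, Ldha was 0.0138, Taldo1 0.00841 and Pygb 0.025. With sex pattern as a term, Pfkl was -0.0498. With probes averaged, Pfkm was -0.0481, Pfkfb2 -0.00772 and Tkt -0.000156. Leaving out 1 array at a time, Hk1 ran from -0.19 to 0.053, Pfkl from -0.00939 to 0.149, Pfkm from -0.0737 to 0.116, Ldha from -0.131 to 0.0708, Taldo1 from -0.113 to 0.0481, Tkt from -0.0244 to 0.273, Gpd2 from -0.00333 to 0.199 and Pygb from -0.0901 to 0.0716. The cause of these turns was not tested. Leaving out 1 array, Slc2a1 ran from -0.45 to -0.31, G6pdx from -0.59 to -0.39, Gpd1 from -0.65 to -0.26 and Eno2 from -0.37 to -0.24. The glycerol phosphate median was 0.0998 among probes detected on all 8 arrays, since Gpd1 is then left out. Dim signal limits probes not detected on every array, Gpd1, Slc16a3 and Hkdc1 among them.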
